A study of Mus musculus with 12 samples.

Results

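A set of 10 genes of the kynurenine route and of the aryl hydrocarbon receptor pathway (Ido1, Kynu, Kmo, Afmid, Haao, Ahr, Ahrr, Tiparp, Cyp1a1 and Cyp1b1) were followed in intestinal epithelial cells of the mouse colon. They were found by symbol among 46517 genes listed in the count tables, and all 10 were present. Ido1 was chosen by its measured levels across the groups of these samples, so its values are given as a description with no test. The other 9 were taken as genes of the same pathways, with earlier results of these data known. The samples came from C57BL/6 mice of 7 to 9 weeks that were wild type (WT) or Nfkb2-/- (knockout, KO, lacking the gene for the p100/p52 NF-kB subunit). Mice of each genotype were untreated or were given DSS (dextran sulfate sodium, used to injure the lining of the colon) for 48 h. Each of the 4 groups had 3 biological replicates. The deletion is not described as restricted to the epithelium in the labels, which name only the genotype. EDTA was used to release the cells from pieces of colon, and the labels put the typical purity of EpCAM-positive, CD45.2-negative cells at about 90%.

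Ido1 encodes indoleamine 2,3-dioxygenase, which opens the indole ring of tryptophan and starts the kynurenine route. Afmid, Kmo, Kynu and Haao encode the enzymes that carry its product onward toward NAD. Kynurenine and other products of tryptophan can bind the aryl hydrocarbon receptor encoded by Ahr, a transcription factor that pairs with Arnt on DNA. Cyp1a1, Cyp1b1, Tiparp and Ahrr are textbook targets of that pair, and the products of Ahrr and Tiparp act back on the receptor as repressors. Interferon-gamma is the best known inducer of Ido1.

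Total counts per library ranged from 5595909 to 8117740. Levels are given as CPM, read counts scaled to a common library size with TMM factors. Nfkb2, read first as a check of the labels, lay between 30.8 and 46.1 CPM in the 6 WT libraries. It lay between 11.7 and 19.6 CPM in the 6 KO libraries, so reads counted for the gene remained in KO. Its exons overlap those of Psd and AC114539.1 on the other strand. Since the strand setting of the counting is not known, its counts are uncertain to that extent. Epithelial markers were high in every library, with 10 genes summing to between 22290 and 33480 CPM. Same-group libraries differed by more than sampling noise, and each was kept as its own sample. Library numbers in the labels separate WT from KO, so library order and genotype cannot be told apart.

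The 10 genes fell into 2 sets by read number. Ido1, Afmid, Ahr and Tiparp had reads in all 12 libraries and passed the filter on low counts. The other 6 did not pass and were not tested. The distribution of reads over libraries is shown first, because it limits what can be said of the route as a whole.

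**Figure D1:**
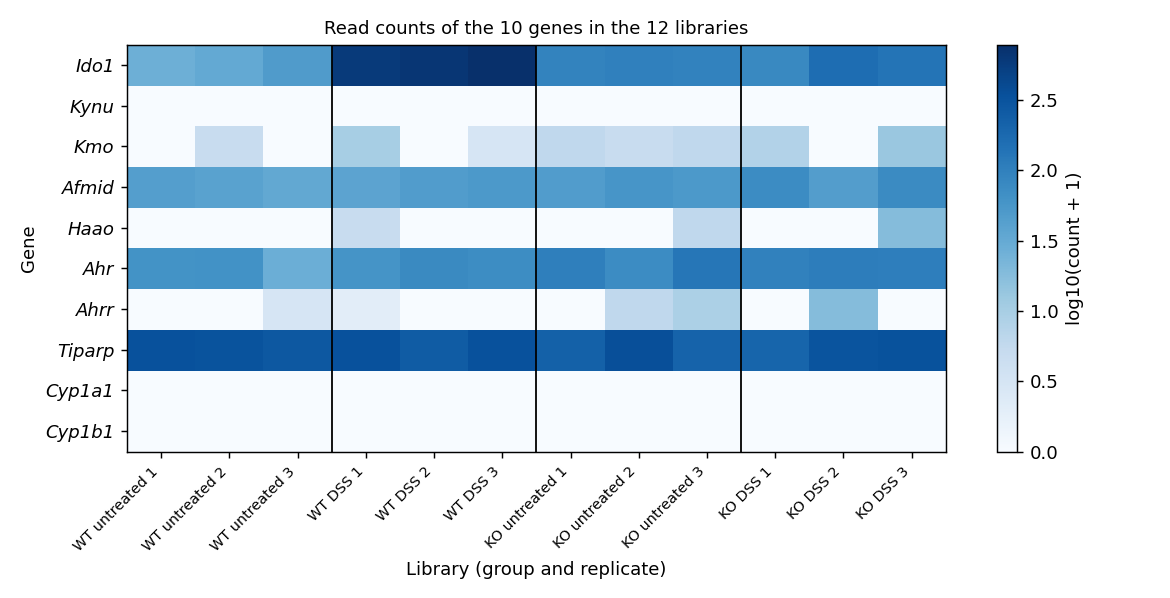
Read counts of the 10 genes (rows) in the 12 libraries (columns, 3 per group), coloured by log10(count + 1). Ido1 is darkest in the 3 DSS-treated WT libraries (590 to 784 counts), Tiparp, Ahr and Afmid are coloured throughout, and Kynu, Cyp1a1 and Cyp1b1 are at 0 in all 12 libraries.

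Cyp1a1, Cyp1b1, Tiparp and Ahrr are textbook targets of Ahr, and the stretch before their start sites is printed here to show where the core of the xenobiotic response element lies. The letters GCGTG, searched on both strands, mark this core, to which the Ahr and Arnt pair binds. The sequences run 5′ to 3′ on the gene's strand from 250 bases before to 50 bases after the RefSeq start, in GRCm38.p6, with the core in capitals (CACGC where it lies on the other strand). The windows are chr9:57697363-57697662 (plus strand) for Cyp1a1, chr17:79715012-79715311 (minus) for Cyp1b1, chr3:65528197-65528496 (plus) for Tiparp and chr13:74292282-74292581 (minus) for Ahrr. RefSeq windows were matched for 7 of the 10 genes.
Cyp1a1: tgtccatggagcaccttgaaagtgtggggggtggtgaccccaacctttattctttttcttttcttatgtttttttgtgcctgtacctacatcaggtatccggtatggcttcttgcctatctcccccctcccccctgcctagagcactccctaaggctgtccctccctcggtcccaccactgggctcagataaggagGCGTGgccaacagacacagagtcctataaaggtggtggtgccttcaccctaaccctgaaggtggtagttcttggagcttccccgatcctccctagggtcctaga
Cyp1b1: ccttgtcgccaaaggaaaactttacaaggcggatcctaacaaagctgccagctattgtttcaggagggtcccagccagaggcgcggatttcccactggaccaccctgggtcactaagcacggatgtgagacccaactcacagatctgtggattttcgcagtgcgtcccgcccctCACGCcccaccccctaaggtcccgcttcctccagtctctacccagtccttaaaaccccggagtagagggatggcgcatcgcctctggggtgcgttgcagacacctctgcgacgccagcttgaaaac
Tiparp: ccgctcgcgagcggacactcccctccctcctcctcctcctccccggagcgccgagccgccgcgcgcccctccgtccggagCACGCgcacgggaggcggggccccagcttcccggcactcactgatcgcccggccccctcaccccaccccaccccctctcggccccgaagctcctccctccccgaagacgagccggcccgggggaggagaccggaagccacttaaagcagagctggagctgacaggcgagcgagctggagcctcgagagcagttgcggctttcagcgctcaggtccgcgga
Ahrr: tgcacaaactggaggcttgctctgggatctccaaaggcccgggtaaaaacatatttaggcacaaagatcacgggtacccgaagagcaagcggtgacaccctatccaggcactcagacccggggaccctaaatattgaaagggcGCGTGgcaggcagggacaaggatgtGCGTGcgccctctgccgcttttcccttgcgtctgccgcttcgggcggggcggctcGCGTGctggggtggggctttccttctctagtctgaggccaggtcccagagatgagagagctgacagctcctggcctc
Cyp1a1, Cyp1b1 and Tiparp each held 1 core and Ahrr held 3, the match nearest the start lying 27 bases before it. Among the other matched genes, which are not textbook targets here, Haao also held 1 core and Kmo and Afmid held 0. Of all 32851 windows of the same length in the table, 32.4% held at least 1 core. The match is a description of the letters only. It did not go with a common level in these cells, where Tiparp had 200 to 353 counts per library and Cyp1a1 and Cyp1b1 had none.

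Ido1 (ENSMUSG00000031551.11, chromosome 8 from 24584136 to 24597009, minus strand of GRCm38) was the gene that varied most among the 4 measured ones. Its level was 3.79, 5.09 and 7.26 CPM in the 3 untreated WT libraries and 89.6, 88.4 and 128 CPM in the 3 DSS-treated WT libraries. In KO it was 12.1, 11.8 and 10.9 CPM untreated and 14.1, 23.9 and 18.7 CPM under DSS. The 4 groups did not overlap, and they ran upward from untreated WT through untreated KO and DSS-treated KO to DSS-treated WT. No neighbours in that order shared a value. For single pairs of groups, no overlap was seen for 20.6% of all tested genes for DSS in WT and 24.3% for DSS in KO. It was seen for 19.3% for KO against WT untreated and 22.3% under DSS. The share of genes with all 4 groups apart was not computed.

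Over the 3 replicates of each group (mean ± SD, n = 3), untreated WT stood at 5.38 ± 1.76 CPM, with 102.0 ± 22.4 CPM in DSS-treated WT, 11.6 ± 0.62 CPM in untreated KO and 18.9 ± 4.87 CPM in DSS-treated KO. The fitted fold difference between DSS-treated and untreated cells was 18.9 in WT (4.24 on the log2 scale) and 1.63 in KO (0.70). KO stood above WT by 2.16-fold in untreated cells (log2 1.11). Under DSS the order was the other way round, with a log2 difference of -2.43 between KO and WT. The DSS change in KO minus that in WT was -3.54 on the log2 scale. These values chose the gene and support nothing further.

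**Figure D2:**
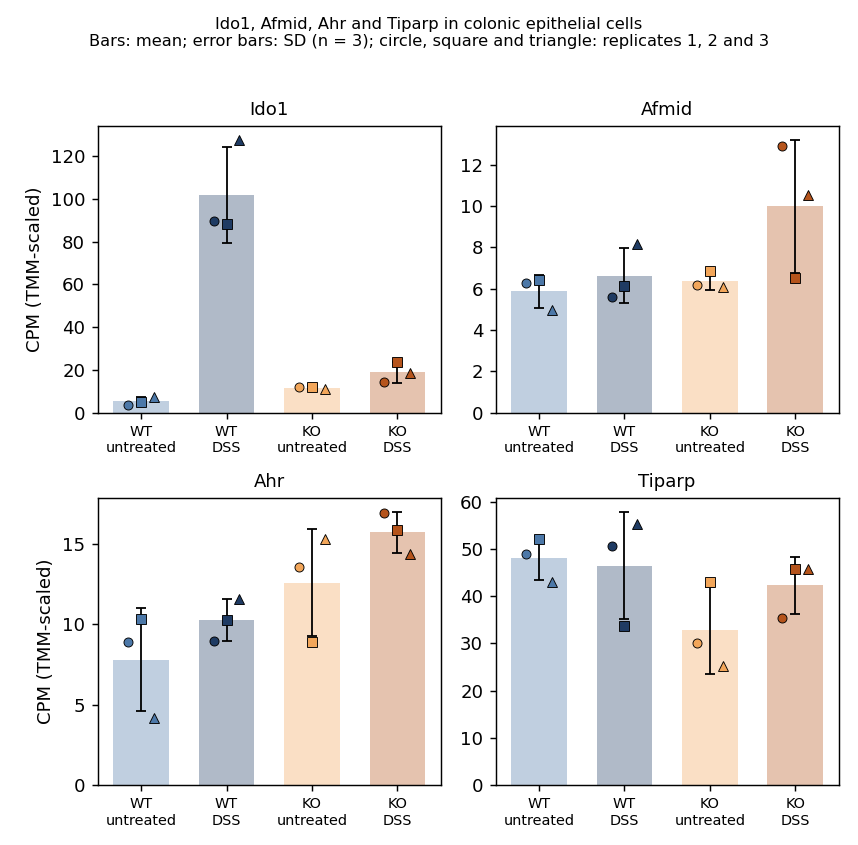
TMM-scaled CPM of Ido1, Afmid, Ahr and Tiparp by group, each axis starting at 0, with bars for the mean, error bars for the SD (n = 3) and a point per replicate. Ido1 reaches 88.4 to 128 CPM in DSS-treated WT and stays at or under 23.9 CPM elsewhere, while the groups of the other 3 genes lie close together and mostly overlap.

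Tdo2 and Ido2 encode the other enzymes that can open the tryptophan ring. Tdo2 had 36 reads in all, spread over 8 of the 12 libraries with at most 10 in any library, and Ido2 had 6 reads in 3 libraries. Ido1 had 2796. Of these, 2037 were from DSS-treated WT. In untreated WT Ido1 had 104 reads, Tdo2 10 and Ido2 1. At this depth Ido1 thus held most of the reads of the first step in every group.

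Afmid (chromosome 11 from 117825924 to 117839908, plus strand) encodes the formamidase that turns the Ido1 product into kynurenine. Its level was 6.27, 6.40 and 4.95 CPM in untreated WT and 5.62, 6.13 and 8.15 CPM in DSS-treated WT. In KO it was 6.19, 6.84 and 6.06 CPM untreated and 12.9, 6.52 and 10.5 CPM under DSS. Replicates 1 and 3 of DSS-treated KO were the highest of the 12, and the groups overlapped in each of the 4 comparisons. Neither DSS comparison passed, with a log2 change of 0.17 for WT (SE 0.312, edgeR adjusted p = 0.861) and 0.65 for KO (SE 0.304, edgeR adjusted p = 0.319). The 95% interval of the change in KO ran from no difference (0.997-fold) to 2.46-fold. Afmid shares exons with Gm20708 on its own strand, with 40.3% of its 50-base words in common, and with Tk1 on the other, so its counts are uncertain.

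Kmo, which hydroxylates kynurenine, had 48 reads in all, in 8 of the 12 libraries. Its counts were 0, 4 and 0 in untreated WT, 9, 0 and 2 in DSS-treated WT, 5, 4 and 5 in untreated KO and 7, 0 and 12 in DSS-treated KO. Haao, which acts after kynureninase, had reads in 3 libraries, with 4 in DSS-treated WT replicate 1, 5 in untreated KO replicate 3 and 17 in DSS-treated KO replicate 3. Libraries of 1 group differed in both genes, and with so few reads no order of the groups could be read. Kynu, which encodes kynureninase, had 0 reads in all 12 libraries. A total of 3 reads, taken as the limit that 0 allows, would be 0.036 CPM over the pooled libraries and 0.356 to 0.53 CPM in a single library. Since reads copied by PCR do not stand for separate molecules, the limits cover counting error alone.

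Ahr (ENSMUSG00000019256.16, chromosome 12 from 35497974 to 35535038, minus strand) was measured at 8.89, 10.3 and 4.17 CPM in untreated WT and 8.96, 10.3 and 11.6 CPM in DSS-treated WT. In KO it was 13.6, 8.91 and 15.3 CPM untreated and 17.0, 15.9 and 14.4 CPM under DSS. The genotypes overlapped when untreated and did not overlap under DSS, a separation shown by 22.3% of all genes tested in that comparison. The fitted KO to WT ratio was 1.62 in untreated cells (log2 0.69, SE 0.313, edgeR adjusted p = 0.304). Under DSS it was 1.53 (log2 0.62, SE 0.308, edgeR adjusted p = 0.386). Neither passed, and the 95% intervals ran from 1.02 to 2.57 and from 0.970 to 2.42. Under DSS the log2 change was 0.40 in WT (edgeR adjusted p = 0.614) and 0.32 in KO (edgeR adjusted p = 0.698). The 2 changes differed by -0.08 (95% interval -1.01 to 0.86, edgeR adjusted p = 0.986). The exons of Ahr overlap the lincRNA Gm48236 on the other strand, and since the strand setting of the counting is not known, its counts are uncertain to that extent.

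Arnt, the DNA-binding partner of Ahr, had means (± SD, n = 3) of 68.3 ± 25.4 CPM in untreated WT, 73.4 ± 6.35 CPM in DSS-treated WT, 69.5 ± 5.74 CPM in untreated KO and 71.7 ± 3.47 CPM in DSS-treated KO. Its smallest edgeR adjusted p over the 5 comparisons was 0.875. Per kilobase of exon, Arnt stood at 8.54 to 9.16 CPM against 1.27 to 2.56 CPM for Ahr, as group means.

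Tiparp (ENSMUSG00000034640.8, chromosome 3 from 65528410 to 65555518, plus strand), an ADP-ribosyltransferase gene and the only measured textbook target among the 10, was at 49.0, 52.2 and 43.0 CPM in untreated WT and 50.7, 33.6 and 55.3 CPM in DSS-treated WT. In KO it was 30.0, 43.1 and 25.2 CPM untreated and 35.4, 45.8 and 45.9 CPM under DSS. Untreated KO was the lowest group by mean (± SD, n = 3), at 32.8 ± 9.26 CPM where untreated WT had 48.0 ± 4.68 CPM, and replicate 2 reached into the WT range. That log2 difference was -0.55 (95% interval -1.03 to -0.08, SE 0.222, edgeR adjusted p = 0.231), which did not pass over all genes. The log2 change under DSS was -0.05 in WT (edgeR adjusted p = 0.957) and 0.37 in KO (edgeR adjusted p = 0.465). In untreated KO the mean of Tiparp thus lay below that of untreated WT and the mean of Ahr above it, and neither difference passed. The exons of Tiparp overlap a processed pseudogene, 4931440P22Rik, on the other strand.

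Ahrr, the receptor's repressor, had 33 reads in 5 libraries, 17 of them in DSS-treated KO replicate 2. In KO it had 5 and 8 reads in untreated replicates 2 and 3, and in WT it had 2 and 1 reads in 2 libraries. Cyp1a1 and Cyp1b1, the cytochrome P450 genes used as standard readouts of Ahr, had 0 reads in all 12 libraries. So did Cyp1a2. For each the pooled limit is again 0.036 CPM.

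Of the 3 tested genes other than Ido1, none passed an edgeR adjusted p under 0.05 in any of the 5 comparisons, and DESeq2 and limma-voom also passed none. Over all 12522 genes tested, 6.3% passed for DSS in WT, 3.92% for DSS in KO, 3.48% for KO against WT untreated, 3.11% for KO against WT under DSS and 1.7% for the difference between the DSS changes. At an unadjusted p under 0.05, 2 of the 3 (Ahr and Tiparp) were reached in untreated KO against WT, where 15.4% of all genes were, and 0 in the other 4 comparisons. With 3 genes these counts cannot be told from the background.

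**Figure D3:**
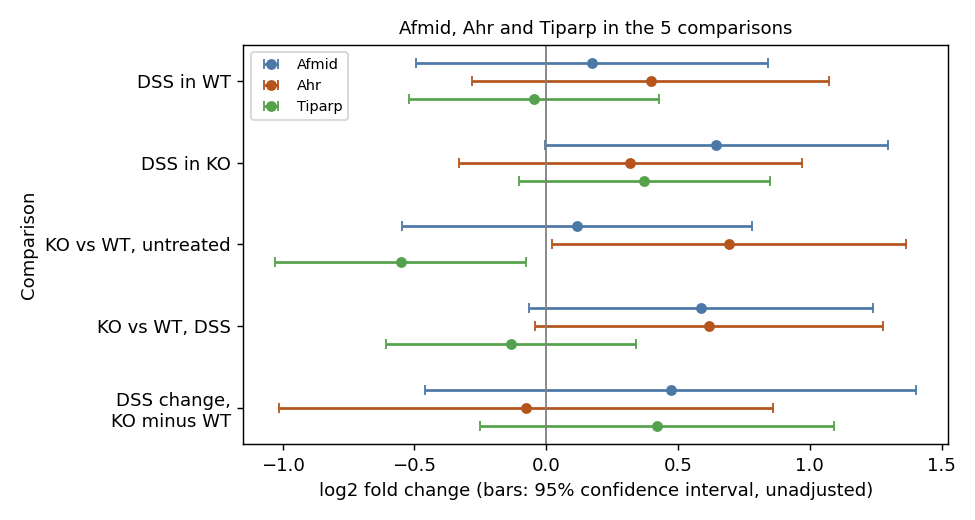
Fitted log2 fold changes of Afmid, Ahr and Tiparp (points) with unadjusted 95% confidence intervals (bars) in the 5 comparisons. In untreated cells the Ahr interval lies above 0 (0.02 to 1.36) and that of Tiparp below 0 (-1.03 to -0.08), and the other 13 intervals include 0.

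Compared per kilobase of exon, Ido1 stood at 2.95 CPM in untreated WT, near Afmid (1.66) and Ahr (1.27) and under Tiparp (11.02). In DSS-treated WT it stood at 55.9 CPM per kilobase, above Tiparp (10.7), Afmid (1.88) and Ahr (1.67). In KO it was 6.37 CPM per kilobase untreated, under Tiparp at 7.52, and 10.4 under DSS, where Tiparp was at 9.72. By group means Ido1 thus stood under Tiparp in untreated cells of both genotypes, though not in untreated KO replicate 3 (5.99 against 5.78). In DSS-treated WT it stood above Tiparp in every library. In DSS-treated KO the genes overlapped, with 7.75, 13.08 and 10.25 CPM per kilobase for Ido1 and 8.11, 10.51 and 10.52 for Tiparp. Only replicate 2 had Ido1 higher there, so no order could be read in that group.

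The 6 genes most like Ido1 by Pearson correlation of log2 CPM over the 12 samples, among the 8860 tested genes whose mean log2 CPM reached 3, were Smad1 (0.957), Wars (0.955), Tac1 (0.954), Golm1 (0.951), Hip1r (0.943) and Rfx1 (0.923). The 3 DSS-treated WT libraries carry part of each value, and over the other 9 samples the correlations were 0.749 to 0.901. Those 9 were among the 12 used to choose the genes, so these values are no separate check. Mean levels of Tac1 ran from 4.43 CPM in untreated WT to 86.9 CPM in DSS-treated WT, with 5.56 and 12.8 CPM in untreated and DSS-treated KO. Those of Smad1 were 80.9, 142.2, 85.7 and 99.4 CPM in the same order. Afmid, Ahr and Tiparp had correlations of 0.0888, 0.159 and 0.136 with Ido1 over the 12 samples.

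Of 31 further genes of tryptophan transport, serotonin synthesis and NAD synthesis, 24 passed the filter. For DSS in WT 1 rose and 2 fell, where 2.8% of all tested genes rose and 3.5% fell. For DSS in KO 1 fell (2.04% of all genes) and none rose (1.88%). In KO against WT 2 were higher in untreated cells (1.72% of all genes) and none lower (1.76%). Under DSS 1 was higher in KO (1.77%) and 1 lower (1.34%), and for the interaction, the DSS change in KO minus that in WT, none was higher (1.17%) and 1 lower (0.527%). The median log2 change of the list under DSS in WT was 0.04, against 0.01 over all genes.

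Wars encodes the tryptophanyl-tRNA synthetase, another known interferon-gamma-induced user of tryptophan. Its WT mean (± SD, n = 3) rose under DSS from 272.9 ± 15.5 to 512.7 ± 38.8 CPM (log2 0.91, SE 0.0926, edgeR adjusted p = 1.78e-05). In KO it was 292.4 ± 10.5 CPM untreated and 350.5 ± 21.6 CPM under DSS, a log2 change of 0.26 that did not pass. Under DSS it was lower in KO than in WT (log2 -0.55, SE 0.0921, edgeR adjusted p = 0.00417). The DSS change itself differed between genotypes by -0.65 (SE 0.13, edgeR adjusted p = 0.0159), and 5 of 12 leave-one-out fits lost that call, with adjusted p up to 0.0695 without DSS-treated WT replicate 1. The others were without untreated WT replicate 2 (0.0529), untreated KO replicate 2 (0.0576) and DSS-treated KO replicates 1 (0.0576) and 2 (0.0511).

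Maoa, encoding the monoamine oxidase that breaks down serotonin, fell under DSS, its WT mean (± SD, n = 3) going from 1211 ± 199.1 to 705.8 ± 40.0 CPM (log2 -0.78, edgeR adjusted p = 0.00032). In KO it fell from 1105 ± 56.4 CPM to 807.2 ± 40.8 CPM (log2 -0.45, edgeR adjusted p = 0.0273). Slc7a8, a carrier of neutral amino acids including tryptophan, was higher in untreated KO than in untreated WT, at 20.1 ± 2.76 CPM against 5.65 ± 1.24 CPM (log2 1.83, SE 0.329, edgeR adjusted p = 0.00581). Maob was higher in KO untreated (log2 0.77, edgeR adjusted p = 0.0363) and under DSS (log2 0.75, edgeR adjusted p = 0.0466). Nmnat1, of NAD synthesis, fell under DSS in WT (log2 -0.88, edgeR adjusted p = 0.0312). The call of Maoa in KO was lost without any of the 6 KO libraries (adjusted p 0.0594 to 0.116), and that of Nmnat1 without untreated WT replicate 1 or any DSS-treated WT library (0.0979 to 0.125), with no filter on low counts (0.0641) and with only the WT groups fitted (0.0762). Those of Maob were lost in 8 and 10 of 12 leave-one-out fits (up to 0.111 and 0.173).

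Among 24 further partners and reported targets of Ahr, 18 passed the filter. For DSS in WT 1 rose and 3 fell (2.8% and 3.5% of all genes), and for DSS in KO 1 rose and 2 fell (1.88% and 2.04%). KO against WT gave 1 higher and 2 lower in untreated cells (1.72% and 1.76%) and 1 higher and 2 lower under DSS (1.77% and 1.34%). For the interaction 2 were higher (1.17%) and none lower (0.527%). The list's median log2 difference was -0.13 for DSS in WT, -0.06 for DSS in KO, -0.29 for untreated KO against WT, -0.05 for KO against WT under DSS and 0.02 for the interaction, where those over all genes lay between -0.01 and 0.01. It thus had calls in both directions in every comparison of 2 groups.

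Xdh, encoding xanthine dehydrogenase, rose under DSS, its WT mean (± SD, n = 3) going from 267.4 ± 14.6 to 404.6 ± 34.2 CPM (log2 0.60, edgeR adjusted p = 0.00327). It rose by a like amount in KO, from 216.8 ± 18.9 CPM to 336.7 ± 37.9 CPM (log2 0.64, edgeR adjusted p = 0.00429). Nfe2l2, the gene of the antioxidant regulator Nrf2, fell under DSS in WT from 327.6 ± 27.5 CPM to 219.9 ± 5.83 CPM (log2 -0.57, edgeR adjusted p = 0.00124). It was at 234.3 ± 12.8 CPM in untreated KO (log2 -0.48 against untreated WT, edgeR adjusted p = 0.0085) and 230.8 ± 7.49 CPM in DSS-treated KO. Scin, encoding the actin-severing protein scinderin, fell under DSS in WT (log2 -1.12, edgeR adjusted p = 0.00087), from 486.0 ± 141.5 CPM to 223.4 ± 20.1 CPM. The KO means were 311.5 ± 18.4 CPM untreated and 397.8 ± 40.8 CPM under DSS, so that DSS-treated KO stood above DSS-treated WT (log2 0.83, edgeR adjusted p = 0.0159).

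Cyp2s1, a cytochrome P450 gene, fell under DSS in WT (log2 -0.48, edgeR adjusted p = 0.027) and was lower in untreated KO than in untreated WT (log2 -0.52, edgeR adjusted p = 0.0287). Gsta3, encoding a glutathione transferase, was higher in untreated KO (log2 1.00, edgeR adjusted p = 0.0164). Nqo1, a quinone reductase gene shared by the Ahr and Nrf2 routes, had means (± SD, n = 3) of 59.6 ± 5.43 CPM in untreated WT and 44.6 ± 1.68 CPM in DSS-treated WT, a difference that did not pass (log2 -0.42, edgeR adjusted p = 0.0941). Arntl, encoding a clock factor of the same protein family as Arnt, fell under DSS in KO (log2 -0.63, edgeR adjusted p = 0.0317) and was lower in KO than in WT under DSS (log2 -0.69, edgeR adjusted p = 0.0238). Hsp90aa1, a chaperone of unbound Ahr, gave -0.45 (edgeR adjusted p = 0.0493) and -0.59 (edgeR adjusted p = 0.0143) in those comparisons, and 47.5% of its 50-base words are shared with pseudogene copies. With the replicate number as a block, the calls under DSS in KO were lost for Arntl (edgeR adjusted p = 0.0506) and Hsp90aa1 (edgeR adjusted p = 0.0792).

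Leaving out 1 library ended several of the calls for this list. For Cyp2s1 5 of 12 such fits lost the call under DSS in WT and 5 lost that in untreated cells (adjusted p up to 0.113 and 0.138). For Arntl 6 and 5 did (up to 0.149 and 0.101) and for Hsp90aa1 8 and 5 (up to 0.224 and 0.0724). Gsta3 was lost without untreated WT replicate 2 (0.0864) or untreated KO replicates 2 (0.0892) and 3 (0.0539), and Nfe2l2 in untreated cells without untreated KO replicates 1 (0.0543) and 3 (0.061). Scin in KO against WT under DSS was lost without DSS-treated WT replicates 1 (0.0683) and 3 (0.09) or DSS-treated KO replicate 2 (0.0923).

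Of 28 listed genes of the interferon, STAT and cytokine routes known to act on Ido1, 24 were tested. For DSS in WT 6 rose and 1 fell, where 2.8% of all tested genes rose and 3.5% fell. For DSS in KO 9 rose (1.88% of all genes) and none fell (2.04%). In untreated KO 1 was higher than in WT (1.72%) and 3 were lower (1.76%). Under DSS 3 were higher in KO (1.77%) and 2 lower (1.34%), and for the interaction 3 were higher (1.17%) and 1 lower (0.527%). The median log2 change of the list under DSS was 0.29 in WT and 0.42 in KO, against 0.01 and 0.01 over all genes. The single genes of the list had several different orders of the groups. Like the other lists, it was chosen with earlier results of these data known, so its counts and medians are a description only.

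Tnf, encoding the cytokine TNF, rose under DSS, its WT mean (± SD, n = 3) going from 3.41 ± 0.84 to 31.3 ± 0.86 CPM (log2 3.19, SE 0.253, edgeR adjusted p = 1.88e-06). It was 14.2 ± 2.29 CPM in untreated KO, higher than in untreated WT (log2 2.05, edgeR adjusted p = 0.000254). In DSS-treated KO it was 10.4 ± 1.74 CPM, lower than in DSS-treated WT (log2 -1.59, edgeR adjusted p = 0.0013). Socs3, a STAT3-induced feedback inhibitor, rose in both genotypes, by 2.19 on the log2 scale in WT (edgeR adjusted p = 1.24e-05) and by 1.37 in KO (edgeR adjusted p = 0.00179). Its means were 18.3 and 83.4 CPM in WT and 18.6 and 48.1 CPM in KO. It was lower in KO than in WT under DSS (log2 -0.79, edgeR adjusted p = 0.0483), a call lost in 9 of 12 leave-one-out fits (adjusted p up to 0.159).

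Irf1, the interferon-gamma-induced activator of Ido1, rose under DSS by like amounts in both genotypes. Its means were 398.0 ± 49.3 and 571.7 ± 28.3 CPM (SD, n = 3) in WT (log2 0.52, edgeR adjusted p = 0.0058). In KO they were 347.8 ± 26.5 and 501.8 ± 29.3 CPM (log2 0.53, edgeR adjusted p = 0.00981, and 0.0634 without untreated KO replicate 3). Irf8 also rose in both, by 0.59 in WT (edgeR adjusted p = 0.00205) and 0.91 in KO (edgeR adjusted p = 0.000156). It was lower in untreated KO than in untreated WT (log2 -0.39, edgeR adjusted p = 0.0458), a call lost in 11 of 12 leave-one-out fits (up to 0.193).

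Stat2 and Irf9, which carry interferon signals to DNA, rose under DSS in KO by 0.94 and 0.62 on the log2 scale (edgeR adjusted p = 6.99e-05 and 0.00905). In WT their means were 176.9 and 125.6 CPM untreated and 170.8 and 117.7 CPM under DSS, and neither difference passed. Irf7, an interferon-induced factor, fell under DSS, its WT mean (± SD, n = 3) going from 661.4 ± 23.8 to 397.4 ± 17.9 CPM (log2 -0.73, edgeR adjusted p = 5.31e-05). In KO it rose from 447.2 ± 24.5 CPM to 733.7 ± 38.8 CPM (log2 0.71, edgeR adjusted p = 0.000226). In untreated cells Irf7 and Stat2 were lower in KO than in WT (log2 -0.56 and -0.47, edgeR adjusted p = 0.0014 and 0.0143). Under DSS, Irf7 (log2 0.88), Stat2 (0.52) and Irf9 (0.59) had higher levels in KO (edgeR adjusted p = 2.89e-05, 0.00723 and 0.0146), whereas Ido1 was lower. The same strand caution applies to Irf7, whose exons overlap Phrf1, to Irf1 with Gm17334, to Arntl with Gm45355 and to Cyp2s1 with Gm26707. The exons of Irf9 overlap those of Rnf31 on its own strand. The Irf9 call under DSS in KO was lost without untreated KO replicate 3 (0.0516) or DSS-treated KO replicate 2 (0.0539), and its KO against WT call under DSS without DSS-treated WT replicates 1 (0.071) and 2 (0.087) or DSS-treated KO replicate 2 (0.0922). That of Stat2 was lost under DSS without DSS-treated WT replicate 1 (0.0586) and in untreated cells without untreated KO replicates 1 (0.0688) and 3 (0.0951).

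Ifng itself had 93 reads in all. Its counts were 2, 4 and 0 in untreated WT, 5, 2 and 7 in DSS-treated WT, 7, 13 and 9 in untreated KO and 2, 15 and 27 in DSS-treated KO. It passed in no comparison, with a smallest edgeR adjusted p of 0.401 in untreated KO against WT. With so few reads, its order among the groups could not be read. Its exons overlap Gm49751 on the same strand.

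**Figure D4:**
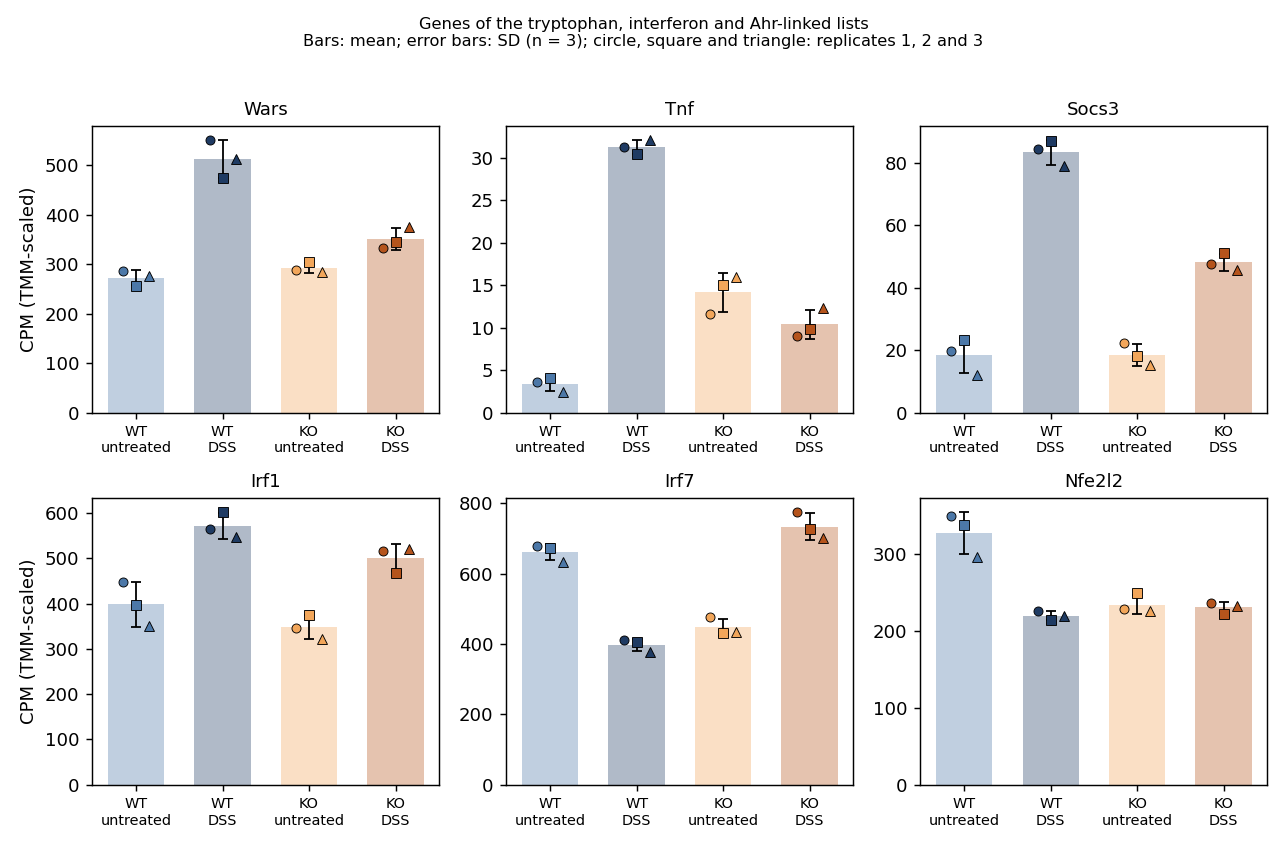
TMM-scaled CPM of Wars, Tnf, Socs3, Irf1, Irf7 and Nfe2l2 by group, each axis starting at 0, with bars for the mean, error bars for the SD (n = 3) and a point per replicate. Wars, Tnf and Socs3 are highest in DSS-treated WT, as is Irf1 by mean (571.7 CPM), while Irf7 is highest in DSS-treated KO (733.7 CPM) and Nfe2l2 in untreated WT (327.6 CPM).

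Because kynurenine genes are also known from leukocytes, marker lists of other cell types are set beside Ido1. In bulk samples, fewer cells of a type and less RNA per cell cannot be told apart. The 10 dendritic cell markers summed to 0.911 to 3.2 CPM in DSS-treated WT, where Ido1 was 88.4 to 128 CPM, and 8 of them had a read in any library. Cd209a and Ccl22 were at 0 in every library. The 14 myeloid markers summed to 89.3 to 142.7 CPM in untreated WT, 232.2 to 253.1 CPM in DSS-treated WT, 175.0 to 211.9 CPM in untreated KO and 235.7 to 253.0 CPM in DSS-treated KO, so that the sums of the DSS-treated genotypes overlapped. Most of these reads were from Cd14 and Ly6g, and single markers differed from the sum. Cd14 had 1141, 1411 and 1020 reads in DSS-treated WT and 769, 937 and 964 in DSS-treated KO. Lyz2 went the other way, with 66, 40 and 36 reads in DSS-treated WT and 155, 127 and 218 in DSS-treated KO. So did Csf1r (37, 28 and 23 against 70, 55 and 85) and C1qb (14, 38 and 14 against 49, 64 and 108). C1qa, Cx3cr1 and Fcgr3 also had more reads in every DSS-treated KO library than in any DSS-treated WT library. S100a8 had fewer, and Cd68, Adgre1, Itgam, Itgax, S100a9 and Ly6g overlapped. The overlap of the sums thus does not hold for each marker. The 12 T cell markers summed to 17.46 to 34.98 and 43.1 to 54.3 CPM in untreated and DSS-treated WT and to 78.4 to 87.8 and 92.7 to 126.8 CPM in KO.

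The 7 B and plasma cell markers summed to 55.3 to 60.1 CPM in DSS-treated WT, above every other library. They summed to 10.04 to 43.7 CPM in untreated WT and to 8.84 to 20.7 CPM in the 6 KO libraries, and most reads were from Igha. Mzb1 was at 0 in every WT library. The part of these cells in the Ido1 level was not tested.

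Markers of epithelial subtypes moved with the groups as well. The 7 colonocyte markers summed to 10640 to 12300 CPM in untreated WT and 2190 to 2608 CPM in DSS-treated WT. In KO they summed to 5588 to 6064 CPM untreated and 2539 to 3157 CPM under DSS, so the sums were low under DSS in both genotypes. Single markers differed from the sum. Ms4a12 did not fall, with 511, 428 and 323 reads in untreated WT and 712, 641 and 669 in DSS-treated WT. In untreated KO Car1, Cyp2c55 and Slc9a3 were lower than in untreated WT, while Car4 and Aqp8 were higher. The 7 goblet cell markers summed to 18850 to 29950 CPM in untreated WT and 15160 to 17510 CPM in DSS-treated WT. In KO the goblet cell sums were 13780 to 15160 CPM untreated and 26750 to 30690 CPM under DSS, the direction opposite to WT. Clca1 had the most reads of the 7 in every library. Its counts were lower under DSS in WT (135065, 100108 and 67404 untreated, 49236, 56684 and 45291 under DSS). Those of Tff3 were not (206, 180 and 99 untreated, 232, 292 and 179 under DSS). The WT counts of Muc2 overlapped (32910, 33766 and 27125 untreated, 30772, 29685 and 27732 under DSS). In KO the counts of Clca1 were higher under DSS (49080, 53536 and 50280 untreated, 89906, 109078 and 104888 under DSS). Those of Fcgbp and Muc2 were higher too. The KO counts of Tff3, Zg16, Spdef and Agr2 overlapped, so the rise of the sum did not hold for each marker. The part of these shifts in the levels of Ido1, Wars or the Ahr targets was not tested.

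**Figure D5:**
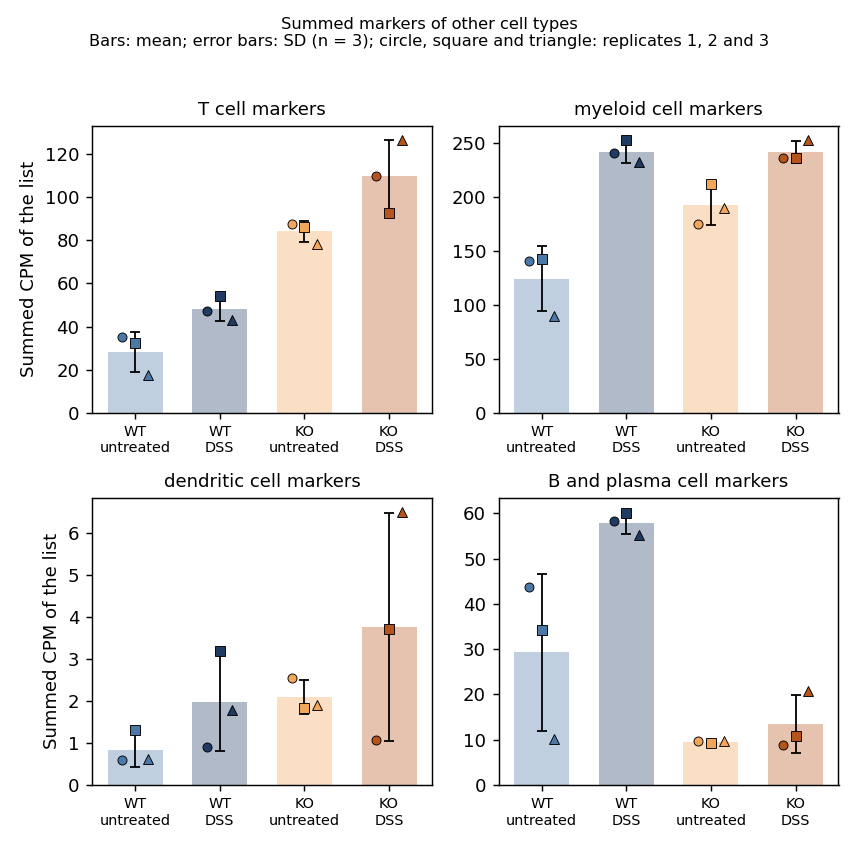
Summed TMM-scaled CPM of the T cell (12 genes), myeloid (14), dendritic cell (10) and B and plasma cell (7) marker lists by group, with bars for the mean, error bars for the SD (n = 3) and a point per replicate. T cell sums are higher in every KO library than in any WT library. Myeloid sums, mostly reads of Cd14 and Ly6g, overlap between the DSS-treated genotypes, while single markers differ. Dendritic cell sums stay at or under 6.51 CPM, and B and plasma cell sums are highest in DSS-treated WT.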

How the data were processed

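RNA of 12 mouse samples was read as whole-number counts per gene. Libraries followed the SMARTSeq v2 protocol, per the labels' protocols, a full-length method that carries no molecular identifiers. The authors deposited raw counts, 1 table per sample. STAR 2.5.2b and featureCounts 1.5.0 with GRCm38 are named, per the submitters' processing notes, while the annotation and the strand setting are not given in the sources used here. Gene IDs were matched to GENCODE M21, with 46005 of 46517 found.

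The counts were fitted with edgeR 4.0.16 in R 4.3.3 (filterByExpr, TMM, 1 coefficient per group over all 12 samples, glmQLFit and glmQLFTest, two-sided), and 12522 genes holding 99.8% of the counts were tested. P-values were adjusted by Benjamini-Hochberg over all of them, with a threshold of 0.05. The interaction is the DSS change in KO minus that in WT. The scripts were tested on simulated counts. Alternatives were RLE size factors, DESeq2 1.42.0, limma-voom (limma 3.58.1), no filter, at least 10 counts in every sample, the contrast's groups alone, the replicate number as a block, and each library left out. The labels do not say how replicates were raised or housed, so p-values measure the spread between these samples.

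The members and gene lists were chosen with earlier results of these data known. From each list up to 8 genes past the threshold with the smallest p were named, and Tdo2, Ido2, Arnt, Ifng, Irf1, Wars, Nqo1 and Cyp1a2 in any case. Some genes that this rule or the marker lists hold are not reported here. Promoter windows are from RefSeq.

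Same-numbered samples were checked for pairing by the correlation of their deviations from the group means. For DSS in KO all 3 pairs lay above 0.1 (0.204, 0.106 and 0.127). In the other comparisons at least 1 pair did not lie above 0.1. Samples with unlike numbers were not compared, so these values cannot show whether the numbers pair the samples. The main fit used no pairing, and the replicate number entered only as a block in 1 of the alternatives.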

Additional observations from a re-analysis of the deposited data

Results flagged for a closer look

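For 7 named genes the DSS change differed between genotypes by a test of the difference itself (edgeR adjusted p under 0.05). The log2 change in KO minus that in WT was -3.64 for Tnf (SE 0.339, edgeR adjusted p = 5.54e-05) and -0.65 for Wars (edgeR adjusted p = 0.0159), the named genes with a negative difference. It was 1.45 for Irf7 (SE 0.118, edgeR adjusted p = 1.95e-05), 1.47 for Scin (SE 0.243, edgeR adjusted p = 0.00456) and 0.99 for Stat2 (SE 0.135, edgeR adjusted p = 0.00094). It was 0.72 for Irf9 (edgeR adjusted p = 0.0483) and 0.55 for Nfe2l2 (edgeR adjusted p = 0.049), and each of those calls was lost in 11 of the 12 fits that left out 1 library, with adjusted p up to 0.149 and 0.161. Over all genes tested 1.7% passed this test.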

How the results depend on the processing

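The count of Afmid, Ahr and Tiparp past the threshold stayed at 0 in the 5 comparisons under every alternative run, and Ido1 kept its direction in each. Its leave-one-out log2 range was 4.03 to 4.52 for DSS in WT, 0.50 to 0.87 for DSS in KO, 0.90 to 1.39 for untreated KO against WT, -2.64 to -2.23 for KO against WT under DSS and -3.82 to -3.33 for the interaction. Small differences changed sign when 1 library was left out. Tiparp under DSS in WT ranged from -0.19 to 0.14 (0.01 without untreated WT replicate 2, 0.14 without DSS-treated WT replicate 2) and in KO against WT under DSS from -0.32 to 0.008 (the highest without DSS-treated WT replicate 3). The Ahr interaction ranged from -0.33 to 0.22 (0.22 without untreated WT replicate 3, 0.09 without untreated KO replicate 3, 0.01 without DSS-treated WT replicate 3), and Arnt under DSS in WT from -0.11 (without untreated WT replicate 3) to 0.43.

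Counts over all genes moved more. In the order DSS in WT, DSS in KO, untreated KO against WT, KO against WT under DSS and interaction, the main counts were 789, 491, 436, 390 and 213. For the last 4, DESeq2 gave 779, 736, 637 and 354, and no filter gave 776, 703, 642 and 356. Fitting only the contrast's groups gave 467 for DSS in WT and 195 for untreated KO against WT. Leaving out 1 library gave 483 to 958, 235 to 710, 212 to 725, 160 to 566 and 152 to 350. The cause was not tested.

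With the replicate number as a block, no count over all genes moved by over 1.5 times, the count of the 3 genes stayed at 0, and 4 of the calls on named list genes were lost. These were Arntl (0.0506) and Hsp90aa1 (0.0792) for DSS in KO, and Irf9 (0.0964) and Nfe2l2 (0.0779) for the interaction, as edgeR adjusted p. Fitting only the contrast's groups lost 8 such calls, namely Nmnat1 for DSS in WT (0.0762), Hsp90aa1 for DSS in KO (0.062) and, for untreated KO against WT, Cyp2s1 (0.128), Gsta3 (0.0681), Nfe2l2 (0.0826), Irf8 (0.185), Stat2 (0.101) and Maob (0.134). No filter lost 3 (Nmnat1 0.0641, Irf8 0.101 and the Nfe2l2 interaction 0.145), and RLE size factors lost Hsp90aa1 for DSS in KO (0.0535). Of 49 calls on named list genes, 26 held in every alternative run. Depth limits Kynu, Kmo, Haao, Ahrr, Cyp1a1 and Cyp1b1, for which no change could be detected.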

Other observations

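Several tryptophan and NAD genes were well measured and passed in no comparison. They were chosen after their values were seen. Slc6a14, an amino acid carrier that takes up tryptophan, had group means of 2252 to 3094 CPM, or 655.7 to 900.9 CPM per kilobase of exon. Nampt and Naprt, which start the routes to NAD from nicotinamide and nicotinic acid, stood at 37.2 to 44.4 and 42.4 to 47.4 CPM per kilobase. Both lay well above Kynu, Kmo and Haao, the enzymes of the route from kynurenine toward NAD, which did not pass the filter on low counts.

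The transaminases that can turn kynurenine into kynurenic acid were also measured. Got2 stood at 32.6 to 41.6 CPM per kilobase, Kyat1 at 7.16 to 12.6 and Kyat3 at 1.38 to 1.89, as group means. Gpr35, a receptor that kynurenic acid can bind, was at 5.65 to 8.54 CPM per kilobase, and its smallest edgeR adjusted p was 0.0853, for DSS in KO (log2 0.60). Exons of Naprt (Eef1d, same strand), Got2 (Gm45760) and Kyat3 (Gm15540, both on the other strand) overlap those of another gene.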
